A study of Solanum lycopersicum with 30 samples.

Results

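Vein-enriched leaf tissue of tomato (Solanum lycopersicum) was compared between plants recovering from drought at the second stress time point (T2 recovered) and plants at the end of the drought (T1 drought). The comparison rests on 4 of the 30 libraries of the study, namely drought 1 and 3 and recovered 1 and 3. Drought 2 and recovered 2 stood out of place by their tissue genes, so they were left out of the main reading and then added back in a second reading of all 6 libraries. The drought plants had received no water for 6 days and were sampled at 29 days post sowing. The recovered plants went through the same drought, and the labels place their sampling 3 days after normal watering resumed, with 150 mL of water given on days 29 and 30. The age at T2 is not stated outright. Watered controls received 150 mL every other day and were sampled at 25 days post sowing (T0), at T1 and at T2. Pots held 300 g of soil, the light period was 16 h and the dark period 8 h, and the fourth true leaf was cut into vein and intervein pieces. Each group had 3 plants, and a plant gave 1 library per tissue. Drought and recovered plants were different plants, so no plant was followed over time. Rewatering, time and age change together in the direct comparison and cannot be told apart in it. The watered vein libraries, which carry time and age alone, are therefore set beside it.

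In a leaf, the veins hold the xylem, which brings water and ions in, and the phloem, which carries sugars out. When soil dries, plants make abscisic acid, a hormone that closes stomata and turns on genes for protective proteins and osmolytes, while genes of growth and photosynthesis are often turned down. After rewatering, abscisic acid is broken down and many of these transcripts move back, at different speeds.

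The table of counts held 35596 rows, of which 34429 carried Solyc identifiers (tomato gene models) and 1167 carried ENSRNA identifiers (non-coding RNA models). The 4 libraries held 5496232 to 9309034 counts, with 17038 to 18848 rows detected. A tissue score was computed for each library as the mean log2 CPM (counts scaled to library size) of 699 genes higher in vein at T0 minus that of 852 genes higher in intervein at T0. Drought 1 scored 1.24 and drought 3 scored 1.08, while recovered 1 scored 1.52 and recovered 3 scored 1.35. Drought 2, at -0.54, and recovered 2, at -3.14, fell below the 13 other vein libraries, which ranged from 0.699 to 2.06, and recovered 2 lay within the range of 14 intervein libraries, -4.13 to -2.44. The difference in score between recovered and drought was 0.281 over 4 libraries (two-sided exact permutation test, p = 0.333, the smallest that 2 against 2 allows) and -0.679 over all 6 (p = 1). In these bulk samples, fewer cells of a type and less RNA per cell cannot be told apart.

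**Figure D1:**
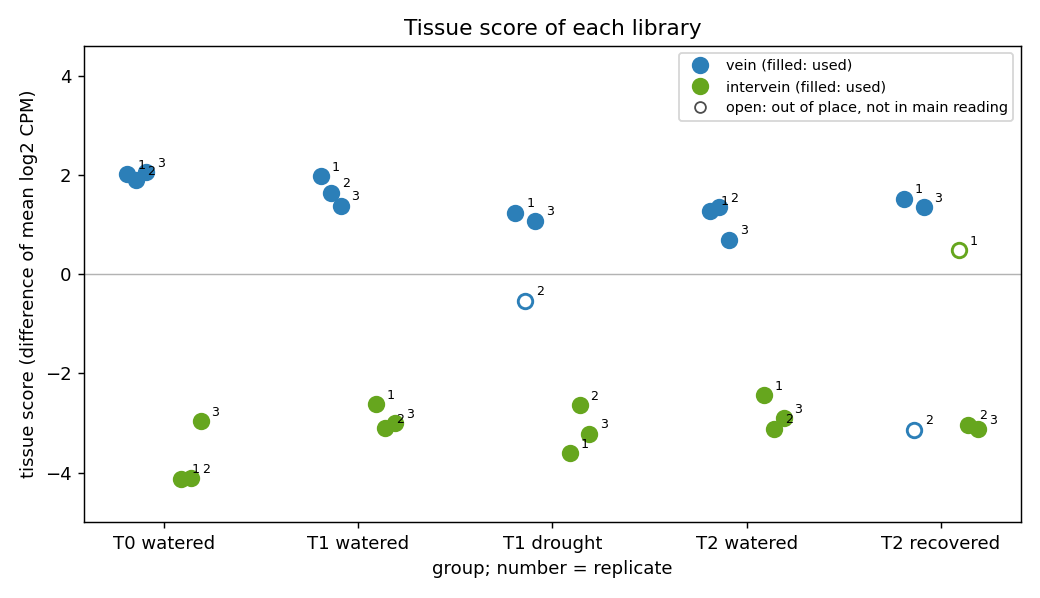
Tissue score of each of the 30 libraries (y axis, difference of mean log2 CPM between vein-preferred and intervein-preferred genes) by group, with the replicate number beside each point. Vein drought 2, vein recovered 2 and intervein recovered 1 (open circles) lie away from the other libraries of their tissue.

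The share of counts in the non-coding RNA rows was lower in every recovered than in every drought library. It was 4.87% in drought 1, 3.16% in drought 2 and 4.16% in drought 3, against 1.37%, 1.97% and 1.59% in recovered 1, 2 and 3. The groups did not overlap, with means of 4.06% ± 0.858 (SD, n = 3) and 1.64% ± 0.304 (SD, n = 3), for which a two-sided exact permutation test gave p = 0.1, the smallest that 3 against 3 allows (adjusted p = 0.5 over 6 such tests). Watered vein went the same way, with a median log2 fold change of -1.90 from T1 to T2 over the 135 non-coding rows tested, beside -1.13 from drought to recovered. By edgeR's quasi-likelihood test 0 of these rows passed an adjusted p of 0.05 on rewatering, an unadjusted p under 0.05 was reached by 1 higher and 22 lower rows (16.3%, beside 8.47% of all rows), and DESeq2 called 6, all lower (4.44%, near the 4.71% of all rows). The part of this share in the results below was not tested.

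Of 18994 rows tested in the fit of 13 vein libraries, 245 (1.29%) differed between recovered and drought vein at an adjusted p under 0.05 (edgeR's quasi-likelihood test, two-sided, Benjamini-Hochberg). After rewatering 142 genes (0.748%) rose, with a median log2 fold change of 2.60, and 103 genes (0.542%) fell, with a median of -2.32. The median of all tested rows was 0.00. At least 8-fold changes were fitted for 51 of the genes that rose and 39 of those that fell. Both drought libraries were at 0 counts for 12 of the 142 genes that rose, and both recovered libraries for 19 of the 103 that fell. Of the 9508 tested rows with a positive change, 930 had at least 8-fold changes and 483 were at 0 in both drought libraries. Of the 9257 with a negative change, 917 had at least 8-fold changes and 660 were at 0 in both recovered libraries. The count of calls depended on single libraries. It was 0 without drought 1 and 22 without drought 3, 761 without recovered 1 and 14 without recovered 3. A fit of the 4 libraries alone called 0 genes and DESeq2 called 2141, of which 242 were among the 245. With all 6 libraries the same test called 943 genes (5.07% of 18612), 510 higher (2.74%) and 433 lower (2.33%), and 41 without drought 1 or 1609 without recovered 1. The values of the 2 conditions did not overlap in the 4 libraries for any of the 245 genes, a property of 50.4% of all tested rows. In all 6 libraries they did not overlap for 108 of the 142 genes that rose and for 94 of the 103 that fell, where 24.6% of all tested rows had no overlap.

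The files pair Solyc identifiers with protein database entries and give neither gene names nor descriptions, so genes are reported by identifier with that entry and without a role. The gene with the most counts among those that rose was Solyc06g076140 (entry Q43513). Its level was 1080 CPM in drought 1 and 1183 CPM in drought 3, against 6580 CPM in recovered 1 and 4515 CPM in recovered 3. In the libraries left out it was 426 CPM in drought 2 and 1901 CPM in recovered 2. Every recovered library stood above every drought library. The fitted log2 fold change was 2.32 ± 0.45 (SE) (adjusted p = 0.0421), and 2.28 with all 6 libraries (adjusted p = 0.0334). Watered vein held 2846 ± 1216 CPM at T0, 4341 ± 1265 at T1 and 2485 ± 734 at T2 (SD, n = 3 each), so that drought 1 and 3 lay below the 3 watered means and recovered 1 and 3 above them. Single watered T1 libraries reached 4766 and 5339 CPM, above recovered 3, and recovered 2 lay below the 3 means. Recovered against watered vein at T2 was not called for this gene (edgeR's quasi-likelihood test, adjusted p = 0.173). The next, Solyc02g089065 (entry A0A3Q7FB09), measured 421, 353 and 308 CPM in drought 1, 2 and 3 and 963, 610 and 1515 CPM in recovered 1, 2 and 3, again with no overlap. It rose by 1.80 ± 0.36 (SE) on the log2 scale (adjusted p = 0.0438), and by 1.52 with all 6 libraries (adjusted p = 0.0297).

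The gene with the most counts among those that fell was Solyc04g073990 (entry O81536). It measured 2913, 1629 and 2234 CPM in drought 1, 2 and 3 and 797, 806 and 747 CPM in recovered 1, 2 and 3. The recovered values lay close together and beside those of watered vein at T1, 873 ± 26.8 CPM, and at T2, 820 ± 25.0 CPM, and all under the T0 level of 1352 ± 375 CPM (SD, n = 3 each). Its log2 fold change was -1.71 ± 0.29 (SE), or 3.26-fold lower (adjusted p = 0.0301), and -1.52 with all 6 libraries (adjusted p = 0.0137). Solyc04g071070 (entry K4BT99) measured 1062, 366 and 2470 CPM in drought and 179, 8.56 and 194 CPM in recovered, with no overlap. Its change of -3.21 ± 0.47 (SE) on the log2 scale was 9.26-fold (adjusted p = 0.0245), and watered vein stood at group means of 186, 188 and 206 CPM at T0, T1 and T2. These 4 genes were chosen for their level after the values were seen.

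Genes with the largest fitted changes were at or near 0 in one of the conditions, so their folds are lower bounds against a floor of 3 counts over the libraries of the group. Solyc03g116390 (entry E1AZA3) had 2978, 3774 and 1207 counts in drought 1, 2 and 3 and 0, 16 and 0 counts in recovered 1, 2 and 3. It was at least 1138-fold lower in the main reading (adjusted p = 0.0324), with bounds of 466 to 1536 when 1 library at a time was left out. With all 6 libraries, where recovered 2 was not at 0, the fitted change was smaller, 280-fold lower (adjusted p = 0.0210). Watered vein held it at 1.61 ± 2.14 CPM at T0, 0 at T1 and 0.363 ± 0.315 CPM at T2 (SD, n = 3), against 314 and 152 CPM in drought 1 and 3, so its level was high in drought and low in watered and recovered vein. Solyc03g019820 (entry K4BEV4) had 1600, 4820 and 894 counts in drought and 0 in all 3 recovered libraries. It was at least 687-fold lower in the main reading (adjusted p = 0.0486), with bounds of 406 without recovered 1 and 281 without recovered 3, and at least 1650-fold lower over all 6 libraries (adjusted p = 0.0165).

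In the other direction, Solyc01g102520 (entry K4B1I0) had 0 counts in all 3 drought libraries and 178, 0 and 80 counts in recovered 1, 2 and 3. It was at least 113-fold higher in the main reading (adjusted p = 0.0274), and its recovered levels of 29.7 and 9.23 CPM enclosed the watered means of 16.7 CPM at T0, 12.9 at T1 and 9.97 at T2. Solyc11g018800 (entry A0A3Q7IT74) had 0 counts in drought 1 and 3, 109 in drought 2, and 60, 1521 and 263 in recovered 1, 2 and 3. It was at least 117-fold higher in the main reading (adjusted p = 0.0301). With all 6 libraries the fitted change was 33.0-fold and missed the threshold (adjusted p = 0.0950). Both genes were at 0 in the 2 drought libraries of the main reading, and their bounds ran from 51.7 to 176 when 1 library was left out. A count of 0 was not always shared within a group. In 227 rows 1 recovered vein library was at 0 while the other recovered libraries had at least 50 counts each (beside 9522 rows with at least 50 in all 3). The same held for 67 rows in drought, 215 in watered T0, 207 in watered T1 and 36 in watered T2. The recovered and drought numbers include recovered 2 and drought 2, which were out of place by tissue genes.

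**Figure D2:**
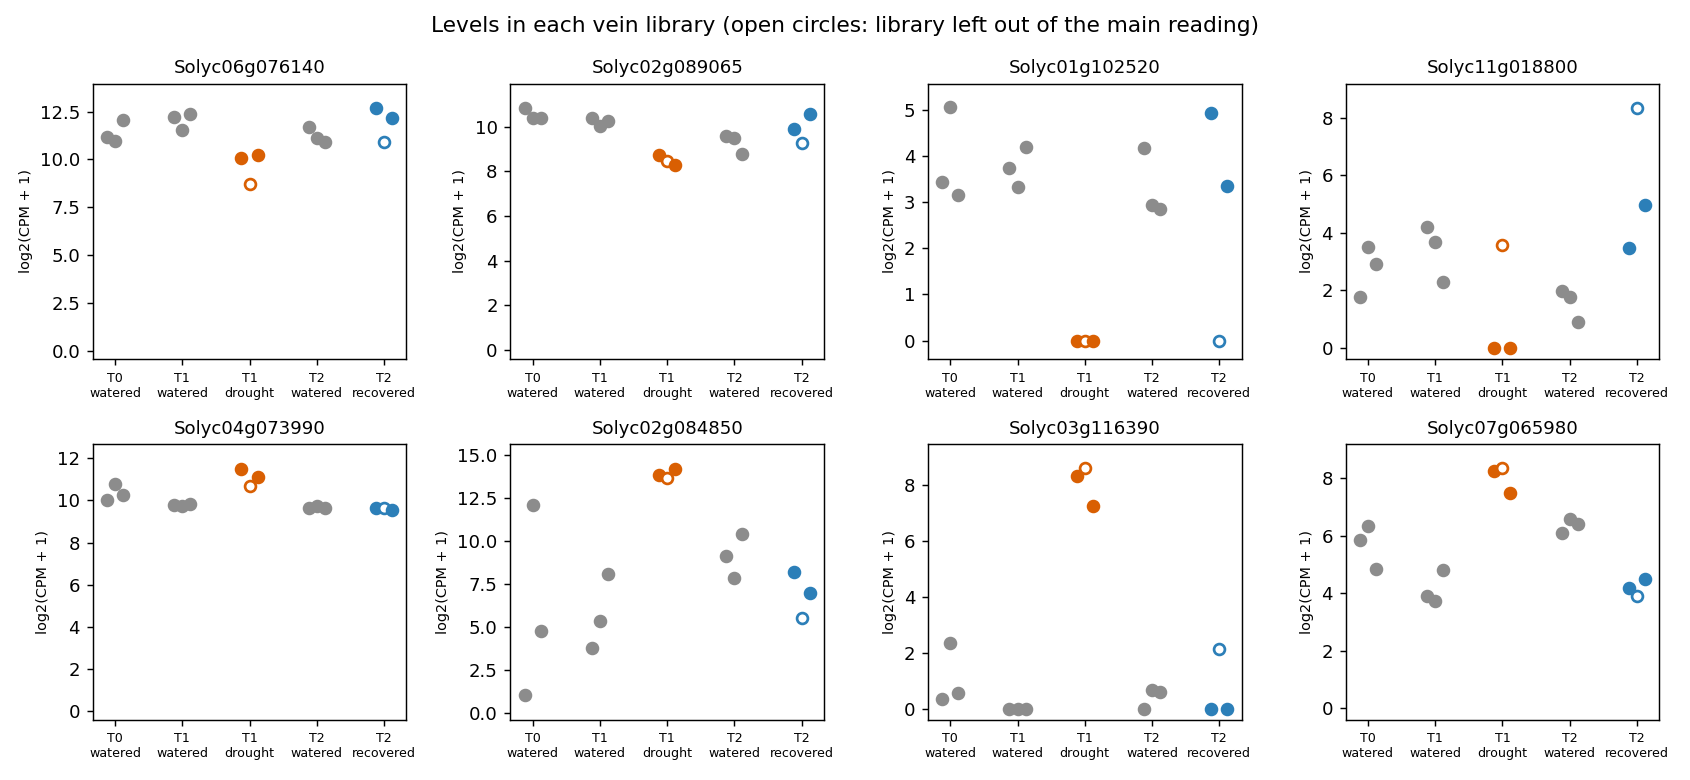
Level of 8 genes in each of the 15 vein libraries (y axis, log2 of CPM + 1) by group, with the drought libraries in orange, the recovered libraries in blue, the watered ones in grey, and libraries outside the main reading as open circles. In the upper row recovered 1 and 3 stand above drought 1 and 3, and in the lower row they stand below, with Solyc02g084850 shown although it missed the threshold.

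With all 6 libraries the largest changes fell on genes at 0 throughout one condition. Solyc01g108610 (entry A0A3Q7FD55) had 0 counts in all 3 drought libraries and 63, 136 and 183 in the recovered ones, at least 185-fold higher (adjusted p = 0.0243, and 0.0825 in the main reading). Solyc12g097010 (entry A0A3Q7JEW8) had 0 counts in drought and 51, 62 and 254 in recovered, at least 155-fold higher (adjusted p = 0.0206). Solyc06g072130 (entry A0A3Q7HUU2) had 4170, 4928 and 2468 counts in drought and 0 in all 3 recovered libraries, at least 2681-fold lower (adjusted p = 0.0257, and 0.0758 in the main reading). No overlap between drought and recovered libraries was a condition for naming these genes, and the call depended on which libraries entered.

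5 genes, Solyc06g072130 above and Solyc10g008720 below among them, were looked up because drought at T1 moved them most in an earlier account of the same data, so their direction here is no independent evidence. Solyc10g078770 (entry Q00747) had 5005, 14475 and 2416 counts in drought 1, 2 and 3 and 0, 9 and 6 in recovered 1, 2 and 3, a log2 difference of -9.97 that missed the threshold in the main reading (adjusted p = 0.0693) and passed it with all 6 libraries (adjusted p = 0.0243). Solyc02g084850 (entry P22240) was at 15111, 13185 and 19074 CPM in drought 1, 2 and 3. It measured 300, 45.6 and 126 CPM in the recovered libraries, with no overlap. Watered vein held it at 1495 ± 2565 CPM at T0, 109 ± 144 at T1 and 718 ± 578 at T2 (SD, n = 3 each), with an SD above the mean at T0 and T1. Its fitted difference of -6.30 ± 2.82 (SE) on the log2 scale, 78.8-fold, did not pass the test (adjusted p = 0.250, and 0.0967 with all 6 libraries). Drought against watered vein at T1 itself, which shares the drought libraries, gave 191 calls (1.01%), 77 higher (0.405%) and 114 lower (0.6%). Solyc05g047590 (entry A0A3Q7HE44) had 0 counts in all 3 drought libraries and 11, 11 and 0 in recovered, and was not called.

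The 9 watered vein libraries show where the changed genes started and ended. Of the 142 genes that rose, 124 (87.3%) lay below all 9 watered libraries in both drought libraries of the main reading, where 11.4% of all tested rows with a positive change did. In the recovered libraries 62 (43.7%) lay inside the watered range, 24 (16.9%) lay above it and the other 56 had their 2 libraries in different positions. Of all tested rows with a positive change, 53.6% lay inside and 5.15% above. Of the 103 genes that fell, 78 (75.7%) lay above all 9 watered libraries during drought, where 13.6% of rows with a negative change did. After rewatering 30 (29.1%) were inside the watered range, where 61.6% of rows with a negative change lay. Another 44 (42.7%) were below all 9 watered libraries, a position that 5.88% of rows with a negative change had. The genes were called on these same drought and recovered libraries, so these positions are a description without a test.

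Time and age were examined through the watered plants. In watered vein 0 genes changed from T1 to T2 by edgeR's quasi-likelihood test, 2136 reached an unadjusted p under 0.05 while 569 were called by DESeq2. For the 142 genes that rose on rewatering the median watered log2 change was -0.62, and 28 (19.7%) had a watered change of the same sign. For the 103 genes that fell it was 0.30, with 35 (34.0%) of the same sign. Over all rows tested the share of the same sign was 39.6%. When the watered change was subtracted within the same fit, 452 genes (2.38%) differed, 308 higher (1.62%) and 144 lower (0.758%), and 504 (2.71%) did so with all 15 vein libraries, 308 higher (1.65%) and 196 lower (1.05%). This count was 0 without drought 1, 1098 without recovered 1 and 13 without watered T2 replicate 2. For Solyc06g076140 the log2 change beyond the watered one was 3.13, and for Solyc02g089065 it was 2.70.

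**Figure D3:**
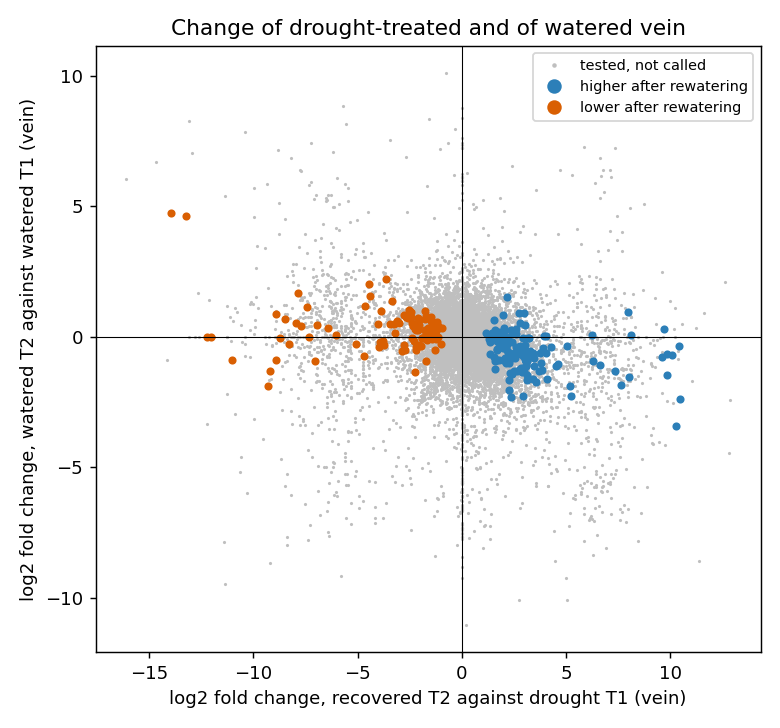
Log2 fold change from drought to recovered vein (x axis) against that from watered T1 to watered T2 vein (y axis), 1 point per tested row, with the 142 genes that rose in blue and the 103 that fell in orange. The called genes lie far from 0 on the x axis, with a median watered change of -0.62 for those that rose and 0.30 for those that fell. The same sign on both axes was held by 19.7% of those that rose and 34.0% of those that fell. Among all tested rows it was held by 37.9% with a positive change and 42.5% with a negative one.

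The largest change beyond the watered one among genes higher after rewatering was fitted for Solyc10g080690 (entry A0A3Q7JFI9). It had 0 counts in drought 1 and 3, 141 in drought 2, and 79, 43 and 1640 in recovered 1, 2 and 3, so drought 2 lay within the recovered range. Watered vein held 88.4 ± 61.1 CPM at T1 and 3.91 ± 3.26 CPM at T2 (SD, n = 3), and the gene was called beyond the watered change (adjusted p = 0.0393) but not in the direct comparison (adjusted p = 0.0734). Solyc06g069730 (entry Q7M1K8) had 0 counts in drought 1 and 3 and 123 in drought 2, against 109, 452 and 152 in recovered 1, 2 and 3. It was at least 104-fold higher in the main reading (adjusted p = 0.0421), with bounds of 47.4 without drought 1 and 56.4 without drought 3. It was called beyond the watered change (adjusted p = 0.0246). With all 6 libraries its fitted change was 10.6-fold and missed the threshold (adjusted p = 0.198). Among genes lower after rewatering the same comparison led with Solyc03g116390 (adjusted p = 0.0363) and Solyc03g019820 (adjusted p = 0.0477), described above.

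A list of drought genes called without the vein libraries was taken from the intervein pieces. These came from the same drought and watered plants at T1, so the vein values below are not independent of the choice. Drought at T1 changed 177 genes in intervein (0.962%), of which 78 rose (0.424%) and 99 fell (0.538%). That number ran from 2, without intervein watered T1 replicate 2, to 564, without intervein drought 1. The latter library was kept for the lists and had few rows detected, as described with the intervein comparison below. The lists were then read in the vein libraries. The 78 genes averaged 6.69, 6.60 and 6.54 log2 CPM in drought 1, 2 and 3 and 5.32, 5.27 and 4.61 in recovered 1, 2 and 3. The watered vein libraries of T0, T1 and T2 ranged from 4.49 to 6.15, so the drought libraries lay above all of them and the recovered libraries within their range. Watered vein at T2 alone stood at 5.44, 5.56 and 6.15, above every recovered library. The 99 genes averaged 3.80, 3.93 and 3.79 log2 CPM in drought and 5.35, 5.26 and 6.04 in recovered, with watered vein at 4.52 to 6.20. For them watered vein at T2 alone stood at 5.03, 4.69 and 4.52, below every recovered library. Drought 2 and recovered 2, out of place by tissue genes, lay with their groups in both lists.

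Gene by gene, the median log2 fold change from drought to recovered vein was -1.17 for the 78 genes, with 89.7% below 0, and 2.13 for the 97 of the 99 genes that were tested, with 94.8% above 0. All tested rows had a median of 0.00 with 49.9% below 0. Of the 78 genes 1 (1.28%) fell and 0 rose, where 0.542% of all rows fell. Of the 97 genes 11 (11.3%) rose and 0 fell, where 0.748% of all rows rose. An unadjusted p under 0.05 was reached by 31 lower (39.7%) and 0 higher of the 78, and by 63 higher (64.9%) and 1 lower of the 97, beside 8.47% lower and 11.1% higher over all rows. DESeq2 called 20 of the 78 lower (25.6%, beside 4.71% of all rows) and 54 of the 97 higher (55.7%, beside 6.56%). Beyond the watered change 8 of the 78 genes were lower (10.3%, beside 0.758% of all rows) and 29 of the 97 were higher (29.9%, beside 1.62%). Watered vein itself moved the other way from T1 to T2, with medians of 0.58 for the 78 and -0.98 for the 97. Subtracting it therefore enlarged the medians to -1.75 and 2.96. The watered T1 plants also entered the choice of the genes, so this movement and the enlarged medians are no independent evidence. With all 6 libraries 10 fell (12.8%, beside 2.33%) and 31 rose (32.0%, beside 2.74%), with medians of -0.98 and 1.69. Without recovered 3 the median of the 97 genes dropped to 1.41.

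**Figure D4:**
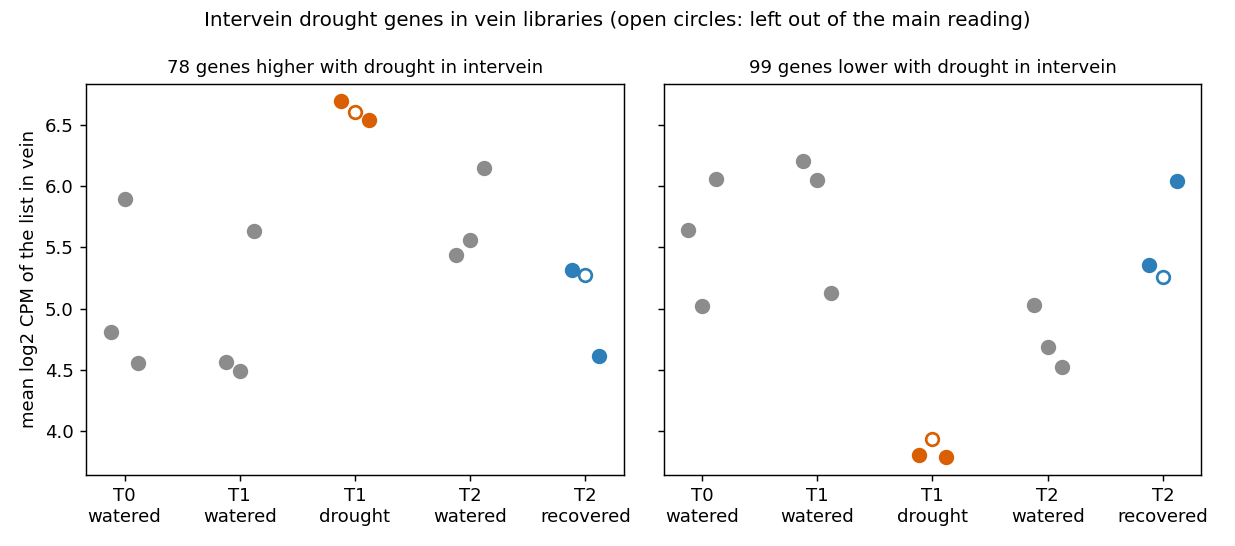
Mean log2 CPM (y axis) of the genes that drought raised (left, 78 genes) or lowered (right, 99 genes) in intervein, in each of the 15 vein libraries by group, with drought in orange, recovered in blue, watered in grey and libraries outside the main reading as open circles. The 3 drought libraries lie above all watered libraries on the left and below them on the right, and the 3 recovered libraries lie within the watered range in both. Against the watered T2 libraries alone, the recovered libraries lie below on the left and above on the right.

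The same rewatering comparison in intervein used 3 drought and 2 recovered libraries, since intervein recovered 1 scored 0.488, above the other intervein libraries and below the 13 vein libraries kept. It called 365 genes (1.84%), 214 higher (1.08%) and 151 lower (0.761%), with a range from 17, without intervein drought 3, to 934, without intervein drought 1. Intervein drought 1 was kept here and in the tissue test below. Its 13740 rows detected and non-coding share of 12.2% were the lowest and highest of the 14 intervein libraries kept. Solyc02g084850 had 33 counts in it, against 109428 and 193227 in intervein drought 2 and 3. Of the other looked-up genes, Solyc10g078770 had 13 counts in it against 3653 and 6683, and Solyc06g072130 had 0 against 1393 and 2374. Solyc05g047590, at 0 in drought vein, had 50 against 0 and 0. Solyc10g008720 was at 0 in all 3. Solyc06g076140, lower in drought, had 1649 counts in it against 3341 and 4159. The library totals were 5288765, 7584343 and 9310901 counts, so by share its 3 values lay nearer each other. Most looked-up genes thus set this library apart, while Solyc10g008720 and Solyc06g076140 did not. Why this library differed was not tested. Of the vein genes that rose, 134 of 142 (94.4%) had a positive intervein change, with a median of 1.83, and of those that fell 94 of 103 (91.3%) had a negative one, with a median of -1.35. Over all tested rows 66.5% had the same sign. Called in both tissues and higher were 32 genes, which are 22.5% of the vein and 15.0% of the intervein list. Called in both and lower were 16 genes, 15.5% of the vein and 10.6% of the intervein list. No gene was called in opposite directions.

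Whether vein and intervein responded differently was tested directly in 1 fit of 27 libraries. By edgeR's quasi-likelihood test 0 genes passed (smallest adjusted p = 0.266), 1131 (5.70%) reached an unadjusted p under 0.05 while 86 were called by DESeq2. These fits took no account of both tissues coming from the same plants, and the labels do not state that libraries of the same number share a plant. With such libraries taken as 1 plant, 4 genes passed (1 higher and 3 lower in vein) with 27 libraries, where 1 recovered plant had both tissues, and 0 with all 30 (686 at an unadjusted p under 0.05). Solyc07g065980 (entry A0A3Q7HG40) fell in both. It measured 308, 326 and 181 CPM in drought vein and 17.3, 13.9 and 21.5 CPM in recovered vein, with no overlap, a log2 fold change of -3.62 ± 0.55 (SE), or 12.3-fold (adjusted p = 0.0270). Its intervein change was -3.34 ± 0.80 (SE, adjusted p = 0.0367). The recovered vein values lay beside those of watered vein at T1, 17.8 ± 8.10 CPM, and under those at T0, 55.5 ± 26.4 CPM, and T2, 82.5 ± 14.1 CPM (SD, n = 3 each). Solyc10g008720 (entry A0A3Q7IBE8) rose in both, in intervein from 0 counts in every drought library to 23 and 11 in recovered 2 and 3. It had 0 counts in all 3 drought vein libraries and 102, 0 and 80 in recovered 1, 2 and 3, at least 76.3-fold higher in the main reading (adjusted p = 0.0252, and 0.0296 in intervein), with bounds of 34.8 without drought 1 and 41.4 without drought 3. Solyc06g076140 rose in intervein as well, by 2.85 ± 0.58 (SE) on the log2 scale (adjusted p = 0.0199). Solyc04g073990 and Solyc04g071070 fell in vein and had intervein values of -0.55 (adjusted p = 0.390) and 1.13 (adjusted p = 0.539). The difference between tissues did not pass the test for Solyc04g071070 (adjusted p = 0.799).

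The genes that mark the tissues were also counted as lists. Among the 699 genes preferred in vein there were 22 that rose (3.15%) and 7 that fell (1.00%), with a median log2 fold change of 0.50. Among the 823 tested genes preferred in intervein 16 rose (1.94%) and 4 fell (0.486%), with a median of 0.23. Over all tested rows 0.748% rose and 0.542% fell, so both lists held a larger share of genes that rose, and the share of intervein-preferred genes that fell was near that of all rows. With all 6 libraries the vein-preferred list had 15 genes that rose (2.15%) and 11 that fell (1.57%), with a median of 0.29, both under the 2.74% and 2.33% of all rows. The intervein-preferred list had 54 that rose (6.51%) and 2 that fell (0.241%) in that reading, with a median of 0.84, above and below the shares of all rows. The part of tissue make-up in the 943 calls of the second reading was not tested.

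**Figure D5:**
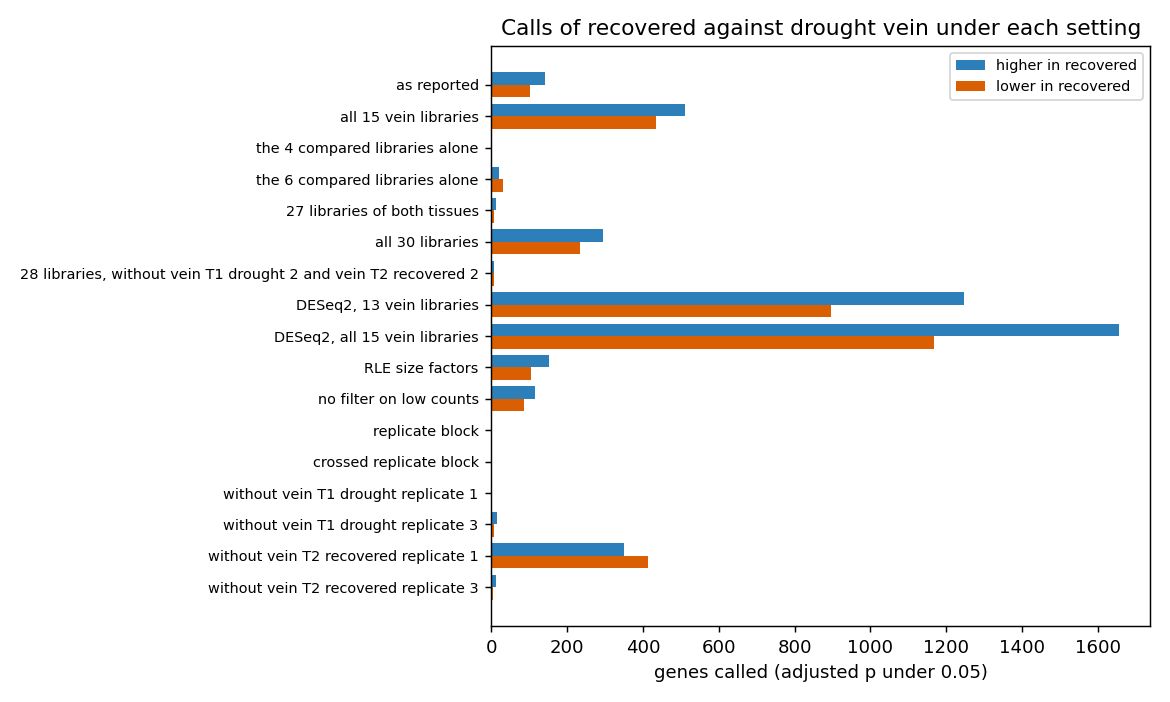
Number of genes called higher (blue) and lower (orange) in recovered than in drought vein (x axis, adjusted p under 0.05) under each setting (y axis). The main reading called 142 higher and 103 lower, and the settings ran from 0 genes, without drought 1, to 2824 genes with DESeq2 on all 15 vein libraries.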

How the data were processed

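Per the file headers, the deposited values used here are raw counts per gene from the KBase platform, not normalized. Tools named in the submitters' processing notes are HISAT2 2.1.0, StringTie 1.3.3b, FastQC 0.11.5 and DESeq2 1.20.0. Per the labels' protocols, libraries were stranded mRNA, read as 75 nt single reads. For the genome build, the annotation and multi-mapping reads the method is not given in the sources used here. Genes with near-identical copies or overlaps are uncertain. The authors' deposited fold changes and p-values for drought at T1 were not used.

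Counts were tested with edgeR 4.0.16 in R 4.3.3 (TMM factors, filterByExpr, quasi-likelihood test) on the 13 vein libraries, with 1 coefficient per group and Benjamini-Hochberg adjustment over all tested rows. Printed CPM used TMM factors over the 15 vein libraries, and SEs are approximate, from the fold change and its F statistic. DESeq2 1.42.0 was an alternative. The comparison, genes and lists were chosen with earlier results of these data known. Named were the 2 largest changes in each direction per comparison, among called genes at a mean of at least 1 CPM without overlap between the compared libraries, plus abundant and looked-up genes. Pathway lists defined by gene descriptions held 0 genes, since the reference table of 41476 genes (SLM_r2.1) held 0 of the identifiers. The floors for counts of 0 cover counting error only. Replicate numbers name separate plants and did not pair them.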

Additional observations from a re-analysis of the deposited data

How the results depend on the processing

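Over 18 genes named in the report and the alternatives of the rewatering comparison in vein, 154 values kept their direction and their side of the threshold, 1 became 0 (Solyc05g047590 without recovered 1, not called in either fit), 107 no longer passed it, 21 newly passed it, and no sign reversed. The 154 include genes not called in the main reading that stayed so. Of the named genes called in the main reading, none kept its call in more than 8 alternatives (Solyc07g065980, 8 of 16). The 245 calls of the main reading became 943 with all 15 vein libraries, 527 with all 30 libraries, 53 with the 6 compared libraries alone, 0 with the 4 alone, 18 with 27 libraries of both tissues and 13 with 28, 2141 with DESeq2 on 13 libraries and 2824 with DESeq2 on 15. RLE factors gave 255 calls and no filter on low counts 200. Leaving out 1 library gave 0 to 761. The 943 calls with all 6 libraries ranged from 41 to 1609 when 1 library was left out, and were 53 with the 6 alone, 527 with all 30 libraries and 2824 with DESeq2.

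The 452 calls beyond the watered change became 146 with 27, 292 with 30 and 131 with 28 libraries, 2446 and 2401 with DESeq2 on 13 and 15 libraries, and 0 to 1098 when 1 library was left out. Beside the 0 calls of the watered change DESeq2 called 569. Drought against watered vein at T1 gave 191 calls, 29 with 27 libraries, 1511 with DESeq2 and 2 to 148 when 1 library was left out. Recovered against watered vein at T2 gave 0 calls by edgeR (3230 at an unadjusted p under 0.05), 89 with 15 and 305 with 30 libraries, 1426 with DESeq2 and 0 to 476 when 1 library was left out. The difference between tissues gave 0 calls, 4 with a replicate block of plants in 27 libraries (added after seeing the data), 86 with DESeq2 and 0 to 33 when 1 library was left out. The 365 intervein calls became 605 with 30 libraries, 2076 with DESeq2 and 17 to 934 when 1 library was left out, and the 177 intervein drought genes 2 to 564. The causes were not tested.

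The medians of the intervein drought genes in vein kept their sign when 1 library was left out, from -1.53 to -0.94 and from 1.41 to 2.27. The tissue score difference of 0.281 was -0.679 with all 6 libraries and 0.197 to 0.365 when 1 library was left out, and the non-coding share changed by -3.04 percentage points, by -2.42 with all 6 and by -3.39 to -2.68 when 1 library was left out.

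The replicate numbers name different plants at T1 and T2. The deviations of the same-numbered drought and recovered libraries had correlations of 0.218, 0.364 and -0.110 over all 6, and drought 3 correlated best with recovered 1 (0.303). With a replicate block the main reading gave 0 calls, all 6 libraries 365, the change beyond watered 0, drought at T1 4 and intervein drought 24. A crossed block, added after seeing the data, gave 0 and 73 calls for rewatering and for the change beyond watered, where the same numbers had a correlation of -0.109 over 4 libraries. The 28-library fits and the intervein drought alternatives, other than all 15 intervein libraries, were also added after seeing the data.

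With 2 libraries per condition, a count of 0 in both allows a level of up to 0.172 CPM in drought and 0.205 CPM in recovered vein (3 counts over the group).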
